A study of Mus musculus with 12 samples.

Results

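The Xlr3, Xlr4 and Xlr5 family is a set of 9 related genes of the mouse X chromosome, near-identical within each of the 3 subfamilies, namely Xlr3a, Xlr3b, Xlr3c, Xlr4a, Xlr4b, Xlr4c, Xlr5a, Xlr5b and Xlr5c. Its members were found by gene symbol in the 3 deposited tables, where all 9 are present among 19718 to 19996 genes per table. The family was chosen by its FPKM in cells that overexpress Foxd3, where it was low, so the values of that comparison are given as a description with no test. The comparisons made by deleting Foxd3 were not used in the choice and were tested.

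Xlr stands for X-linked lymphocyte-regulated, after the cells in which the founding gene was described. The proteins of the family resemble SYCP3, a structural protein of the synaptonemal complex, which joins homologous chromosomes during meiosis, and Xlr3 protein is known on the sex chromosomes of mouse spermatocytes. In mouse brain, Xlr3b, Xlr4b and Xlr4c are known for expression that depends on which parent the X chromosome came from. The genes are copies in a cluster, so a short read from one of them often matches others equally well.

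Polyadenylated RNA was sequenced in 12 libraries of mouse embryonic stem cells, pluripotent cells derived from the early embryo, with 2 libraries in each of 6 groups. Foxd3, the gene that was overexpressed or deleted, encodes a forkhead protein that binds DNA and acts in stem cells and neural crest. In the first comparison, tetON Foxd3 cells, in which doxycycline switches on Foxd3, were set against WT cells of the line LF2. Cells of both lines received doxycycline (1 µg/µl) for 3 days and grew without feeders in medium with 15% FBS and LIF, a cytokine that maintains pluripotency. In the second comparison, made in serum and LIF (SL), Foxd3fl/fl;Cre-ER cells after 3 days with 2 µM 4-hydroxytamoxifen (TM), the Foxd3-/- group, were set against untreated cells of that line, the Foxd3fl/fl group. TM activates the recombinase Cre-ER, which removes the floxed gene. These cells grew on irradiated mouse embryonic fibroblast feeders in medium with 15% FBS. In the third comparison the same line, with and without TM, was kept in 2i, a serum-free medium with LIF, the MEK inhibitor PD0325901 (0.4 µM) and the GSK3β inhibitor CHIR99021 (3 µM), for which the protocol names no feeders. No tetON Foxd3 cells without doxycycline were included, so the cell line and the induction of Foxd3 cannot be told apart. No cells without floxed alleles received TM, so TM and the deletion cannot be told apart either. The labels do not say whether the 2 libraries of a group came from separate cultures, and the p-values therefore measure only the spread between these libraries, which may be technical.

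Levels are given as FPKM, a measure of mapped fragments adjusted for the size of the library and the length of the transcript, which can be compared between genes of different length. Foxd3 had 53.2 and 50.1 FPKM in tetON Foxd3 libraries, against 10.6 and 14.1 FPKM in WT libraries. It had 1.62 and 1.83 FPKM in Foxd3-/- libraries in SL, against 4.53 and 4.81 FPKM in Foxd3fl/fl libraries. In 2i it had 2.07 and 2.45 FPKM in the libraries labelled Foxd3-/-, against 2.51 and 2.42 FPKM in Foxd3fl/fl libraries, so the 2i label was not borne out by the Foxd3 level and is written below as a label. The authors' mean reads of a group sum to between 24278900 (labelled Foxd3-/- in 2i) and 54096100 (Foxd3fl/fl in SL) over all genes, which is the only statement of depth in the tables. All 8 stem cell markers examined were present in every library, with summed levels of 1869 to 3379 FPKM. The 14 fibroblast markers summed to 160 and 155 FPKM in Foxd3-/- libraries in SL, against 93.8 and 118 FPKM in Foxd3fl/fl libraries, and to 5.80 to 15.9 FPKM in the libraries grown without stated feeders. The 7 lymphocyte markers in the tables summed to between 2.01 and 7.40 FPKM in all 12 libraries.

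The copies of a subfamily differed at so few bases that most short windows of a transcript were shared. In the coding sequences of GENCODE M21 (GRCm38), copies of one subfamily were 98.2% to 99.5% identical over 9 pairs, and copies of different subfamilies were 64.9% to 68.6% identical over 27 pairs. The 3 Xlr3 copies differed from each other at 14 of 678 coding positions, the Xlr4 copies at 8 of 645 and the Xlr5 copies at 7 of 708. The 60 coding bases with the densest differences of each subfamily show how little separates the copies. They are written 5′ to 3′ from the coding strand, with the positions at which the 3 copies differ in capitals. For Xlr3 the stretch covers coding positions 189 to 248, counted from 1 at the start codon.
Xlr3a: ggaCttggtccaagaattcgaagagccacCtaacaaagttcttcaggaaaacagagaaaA
Xlr3b: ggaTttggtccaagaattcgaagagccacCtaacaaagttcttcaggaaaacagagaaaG
Xlr3c: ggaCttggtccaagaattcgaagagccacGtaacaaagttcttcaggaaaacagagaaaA

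For Xlr4 the stretch covers coding positions 508 to 567.
Xlr4a: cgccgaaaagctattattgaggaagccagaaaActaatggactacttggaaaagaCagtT
Xlr4b: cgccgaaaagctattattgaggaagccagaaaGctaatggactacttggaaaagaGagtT
Xlr4c: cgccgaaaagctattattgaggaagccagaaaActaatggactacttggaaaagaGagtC

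For Xlr5 it covers coding positions 1 to 60, in which Xlr5a and Xlr5b are the same.
Xlr5a: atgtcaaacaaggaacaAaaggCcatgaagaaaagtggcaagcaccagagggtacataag
Xlr5b: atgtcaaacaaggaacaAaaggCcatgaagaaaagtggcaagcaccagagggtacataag
Xlr5c: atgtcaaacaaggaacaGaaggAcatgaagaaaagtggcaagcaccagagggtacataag

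Each transcript was divided into all windows of 50 bases, and a window was called unique when no transcript of another gene in the annotation held it on either strand. The share of unique windows was 24.5% for Xlr3a, 6.67% for Xlr3b and 27.9% for Xlr3c. It was 30.5% for Xlr4a, 26.9% for Xlr4b and 47.8% for Xlr4c, and 13.1% for Xlr5a, 9.79% for Xlr5b and 15.1% for Xlr5c. With windows of 100 bases the unique share lay between 19.8% (Xlr5b) and 62.2% (Xlr4c). Xlr4c was thus the copy with the most sequence of its own, and Xlr3b and Xlr5b had the least. The sources used here give no read length. Windows of 50 bases were also shared with genes outside the family, from 10.9% of the windows of Xlr3c to 34.7% of those of Xlr4b. The values of single copies below depend on how the authors' counting split shared reads. Sums over a subfamily depend on it too, since FPKM divides by length and the copies differ in length (1162 bases for the Xlr4a transcript and 1500 bases for that of Xlr4c).

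All 9 genes lie within 218.632 kb of chromosome X (GRCm38, GENCODE M21), with the subfamilies interspersed. Xlr4a (chrX:73074345-73082478, minus strand) lies at one end, followed by Xlr3a (chrX:73086293-73097095, minus) and Xlr5a, whose annotated body (chrX:73107635-73292976, minus) spans most of the cluster through 1 long transcript. Next come Xlr5b (chrX:73148796-73158872, plus), Xlr3b (chrX:73192207-73202930, plus) and Xlr4b (chrX:73214333-73222453, plus). The far end holds Xlr4c (chrX:73233688-73243130, minus), Xlr3c (chrX:73254540-73265390, minus) and Xlr5c (chrX:73282896-73292976, minus). All 9 are protein-coding genes, and the values refer to the whole gene.

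The upstream sequences of the copies are shown because the 9 genes were low together in tetON Foxd3 cells. RefSeq (GRCm38.p6) gave the 250 bases before the start of all 9. Xlr3b and Xlr3c were identical at 98.3% of 230 aligned bases, Xlr3a and Xlr3b at 93.6% of 187, Xlr3a and Xlr3c at 95.2% of 167, Xlr4 copies at 98.2% to 99.1%, and Xlr5a and Xlr5b at 205 of 205 aligned bases. The RefSeq window of Xlr5c (chrX:73290516-73290765, minus) lies inside the GENCODE body of that gene (chrX:73282896-73292976). It is thus not upstream of the GENCODE start, and 21 of its bases could be aligned with Xlr5a. A window of each subfamily is written 5′ to 3′ on the gene's strand, with CCAAT, found here on the gene's own strand, in capitals. The windows are chrX:73265391-73265640 (minus) for Xlr3c, chrX:73082508-73082757 (minus) for Xlr4a and chrX:73148591-73148840 (plus) for Xlr5b. That of Xlr5b runs past the GENCODE start of the gene (chrX:73148796), and its CCAAT lies across that start.
Xlr3c: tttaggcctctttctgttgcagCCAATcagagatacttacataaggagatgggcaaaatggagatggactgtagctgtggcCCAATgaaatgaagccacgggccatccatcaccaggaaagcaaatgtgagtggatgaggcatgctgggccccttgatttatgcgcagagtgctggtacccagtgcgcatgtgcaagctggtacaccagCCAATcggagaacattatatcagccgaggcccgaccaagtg
Xlr4a: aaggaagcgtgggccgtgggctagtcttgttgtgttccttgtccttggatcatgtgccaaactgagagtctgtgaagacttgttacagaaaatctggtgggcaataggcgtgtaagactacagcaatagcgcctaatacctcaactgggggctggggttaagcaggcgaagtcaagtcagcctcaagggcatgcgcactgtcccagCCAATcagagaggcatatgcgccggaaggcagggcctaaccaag
Xlr5b: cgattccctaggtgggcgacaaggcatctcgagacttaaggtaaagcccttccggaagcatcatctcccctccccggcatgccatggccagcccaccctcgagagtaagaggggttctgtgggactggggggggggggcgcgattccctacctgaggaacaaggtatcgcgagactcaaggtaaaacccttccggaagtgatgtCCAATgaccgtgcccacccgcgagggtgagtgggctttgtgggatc

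The forkhead core TGTTTA, searched on both strands, was in 0 of the 9 windows, against 12.03% of 32851 RefSeq promoters of the same length. CACGTG, an E-box, was in 0 of 9, against 6.02% of all, and TTCCCGC, the E2F6 motif, in 0 of 9, against 3.82% of all. CCAAT on either strand was in 7 of 9 windows, all but Xlr5a and Xlr5c, against 33.8% of all promoters. The Xlr5a window ends at the first base of the CCAAT found in the Xlr5b window. Those windows thus differ in it by where they end, and whether Xlr5a has it was not covered. The CCAAT box was looked for after the sequences had been read, and the windows are copies of each other, so the 7 are not independent. The number of CpG dinucleotides was 3, 6 and 6 in Xlr3a, Xlr3b and Xlr3c, 8, 8 and 5 in Xlr4a, Xlr4b and Xlr4c, and 12, 14 and 1 in Xlr5a, Xlr5b and Xlr5c, against a median of 6 over all promoters. A match or its absence describes these windows only. The Xlr5c window lies inside the GENCODE gene, and the Xlr5b window runs past the GENCODE start.

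All 9 copies were low in tetON Foxd3 cells, with group means of 1.13 to 4.77 FPKM, against 17.0 to 64.8 FPKM in WT cells. Xlr3a, the most abundant copy in both groups, had 4.66 and 4.87 FPKM in tetON Foxd3 libraries, against 80.7 and 48.8 FPKM in WT libraries. Xlr3b had 2.51 and 1.94 FPKM in tetON Foxd3 libraries, against 42.3 and 29.6 FPKM in WT libraries. Xlr3c had 1.16 and 1.10 FPKM in tetON Foxd3 libraries, against 39.7 and 20.4 FPKM in WT libraries. The WT mean was 13.6, 16.2 and 26.6 times the tetON Foxd3 mean for Xlr3a, Xlr3b and Xlr3c. No tetON Foxd3 library reached a WT library for any of them.

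The Xlr4 copies were the least abundant in WT cells. Xlr4a had 1.93 and 1.76 FPKM in tetON Foxd3 libraries, against 29.4 and 18.1 FPKM in WT libraries. Xlr4b had 1.59 and 1.26 FPKM in tetON Foxd3 libraries, against 22.6 and 13.6 FPKM in WT libraries. Xlr4c, the copy with the most sequence of its own, had 1.504 and 1.19 FPKM in tetON Foxd3 libraries, against 21.1 and 12.8 FPKM in WT libraries. The ratio of the means was alike in the 3 copies, with WT at 12.9, 12.7 and 12.6 times tetON Foxd3. Again neither tetON Foxd3 library overlapped a WT library.

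The Xlr5 copies were as abundant as the Xlr3 copies in WT cells. Xlr5a had 2.42 and 2.87 FPKM in tetON Foxd3 libraries, against 54.9 and 48.3 FPKM in WT libraries. Xlr5b had 1.98 and 2.03 FPKM in tetON Foxd3 libraries, against 44.0 and 34.3 FPKM in WT libraries. Xlr5c had 1.77 and 2.08 FPKM in tetON Foxd3 libraries, against 51.1 and 33.6 FPKM in WT libraries. Their WT means were 19.5, 19.5 and 22.0 times the tetON Foxd3 means.

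**Figure D1:**
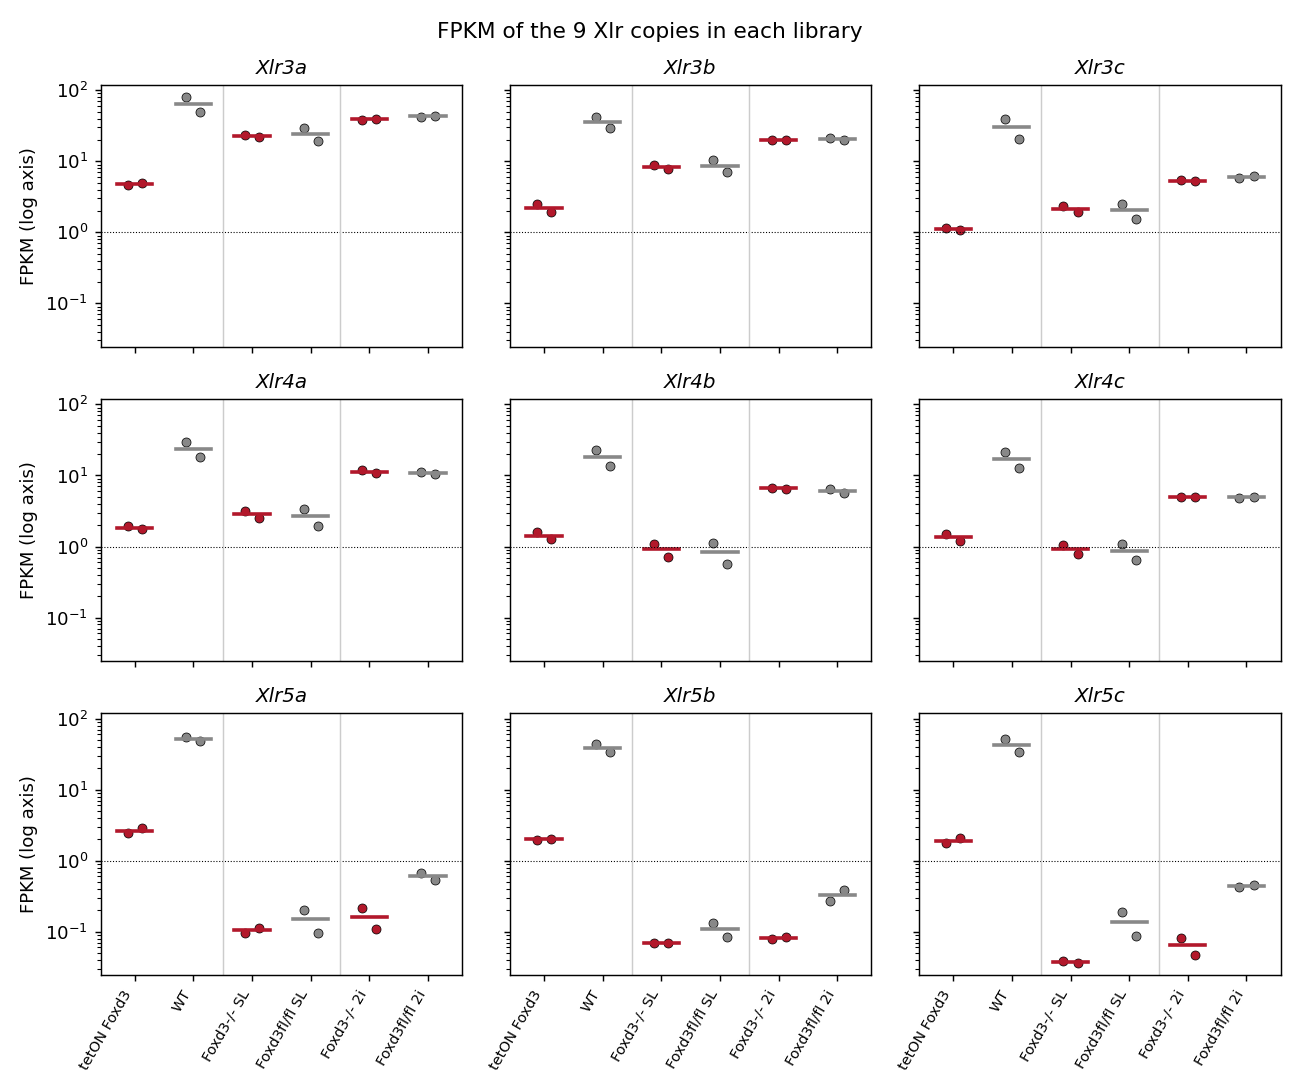
FPKM of each copy in the 12 libraries, on a log axis, with a panel per copy; points are libraries, horizontal bars are group means, red marks tetON Foxd3 and Foxd3-/- and grey marks WT and Foxd3fl/fl, and the dotted line is 1 FPKM. In every panel both tetON Foxd3 points lie under both WT points, and the Xlr5 copies lie under 1 FPKM in all SL and 2i libraries.

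On the log2(FPKM + 1) scale the differences between tetON Foxd3 and WT were -3.47 (Xlr3a), -3.50 (Xlr3b) and -3.79 (Xlr3c). They were -3.08 (Xlr4a), -2.94 (Xlr4b), -2.90 (Xlr4c), -3.85 (Xlr5a), -3.73 (Xlr5b) and -3.86 (Xlr5c). Their median was -3.50, beside 0.03 over the 11972 genes with a mean of at least 1 FPKM in either group. Ordered from the lowest difference of these genes, Xlr5c ranked 1, Xlr5a 2, Xlr3c 3, Xlr5b 4, Xlr3b 5, Xlr3a 6, Xlr4a 7, Xlr4b 11 and Xlr4c 12. In 9 of 9 copies the tetON Foxd3 libraries lay below the WT libraries without overlap, beside 22.8% of the 11972 genes. These values chose the family, so they are given with no test. The authors' deposited table gives signed folds of -12.5 (Xlr3a) to -34.36 (Xlr3c) for the 9 copies, computed from mean reads.

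WT replicate 1 was higher than WT replicate 2 for all 9 copies, by a ratio of 1.14 (Xlr5a) to 1.95 (Xlr3c). In tetON Foxd3 the ratio of replicate 1 to replicate 2 was 0.843 to 1.30. The family therefore summed to 19.5 and 19.1 FPKM in tetON Foxd3 libraries, against 386 and 260 FPKM in WT libraries. The founding gene Xlr, which is a relative outside the cluster, had 11.8 and 5.74 FPKM in tetON Foxd3 libraries, against 13.2 and 4.93 FPKM in WT libraries. Its groups overlapped (log2 difference 0.02, adjusted p = 0.989 by limma, a linear model moderated over all genes, with Benjamini-Hochberg adjustment).

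The sum of markers of other cells also moved in this comparison. The 7 lymphocyte markers summed to 2.72 and 2.01 FPKM in tetON Foxd3 libraries, against 3.99 and 3.02 FPKM in WT libraries, with 2 of the 7 above the level for testing and 0 called. The 7 trophoblast markers summed to 12.7 and 19.1 FPKM in tetON Foxd3 libraries, against 27.7 and 32.7 FPKM in WT libraries, with 3 tested and 0 called. Most of that sum was Tfap2c, with 10.7 and 15.0 FPKM in tetON Foxd3 libraries, against 24.2 and 29.7 FPKM in WT libraries, while Cdx2, which defines trophoblast stem cells, was at 0 in tetON Foxd3 replicate 1 and at 0.0990, 0.0232 and 0.0742 FPKM in the other libraries. The 8 stem cell markers summed to 2397 and 2314 FPKM in tetON Foxd3 libraries, against 3327 and 3379 FPKM in WT libraries. Of them 2 were called lower, Nanog and Dppa5a, beside 1.65% of all genes. The fibroblast and the germ cell markers overlapped between the groups, with sums of 7.14 and 7.82 against 7.72 and 5.80 FPKM for the first list and of 126 and 115 against 117 and 75.2 FPKM for the second (tetON Foxd3, then WT). Fewer cells of a type and less RNA per cell cannot be told apart in bulk RNA, and the part of these cells in the Xlr values was not tested.

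Across the 6 groups the family sum was lowest in tetON Foxd3 cells (19.3 ± 0.314 FPKM, mean ± SD, n = 2) and highest in WT cells (323 ± 89.3 FPKM). In SL it was 38.0 ± 2.70 FPKM in Foxd3-/- libraries and 39.7 ± 12.1 FPKM in Foxd3fl/fl libraries. In 2i it was 87.5 ± 0.623 FPKM in libraries labelled Foxd3-/- and 92.4 ± 0.246 FPKM in Foxd3fl/fl libraries. The 3 tables were normalized separately and differ in cell line, medium and feeders, so levels set across them are a description.

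The make-up of the family differed between the lines, which also differ in feeders or medium, in both the Xlr5 and the Xlr3 share. In the tetON Foxd3 and WT libraries the Xlr5 copies made up 34.1% ± 3.51 and 41.8% ± 4.16 of the summed FPKM (SD, n = 2 each). In the Foxd3fl/fl;Cre-ER line they made up 0.557% (Foxd3-/-) and 0.967% (Foxd3fl/fl) in SL and 0.351% (labelled Foxd3-/-) and 1.48% (Foxd3fl/fl) in 2i. The Xlr3 copies made up 42.0% and 40.1% in tetON Foxd3 and WT, 87.2% and 88.2% in Foxd3-/- and Foxd3fl/fl in SL, and 73.5% and 75.0% in the labelled Foxd3-/- and the Foxd3fl/fl libraries in 2i. The Xlr4 share was 23.9% in tetON Foxd3 and 18.0% in WT, 12.2% in Foxd3-/- and 10.9% in Foxd3fl/fl in SL, and 26.2% in labelled Foxd3-/- and 23.5% in Foxd3fl/fl in 2i. The low family level of tetON Foxd3 cells thus had a make-up near that of WT cells, and the SL and 2i libraries of the other line held hardly any Xlr5 at a higher family sum than tetON Foxd3 cells.

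**Figure D2:**
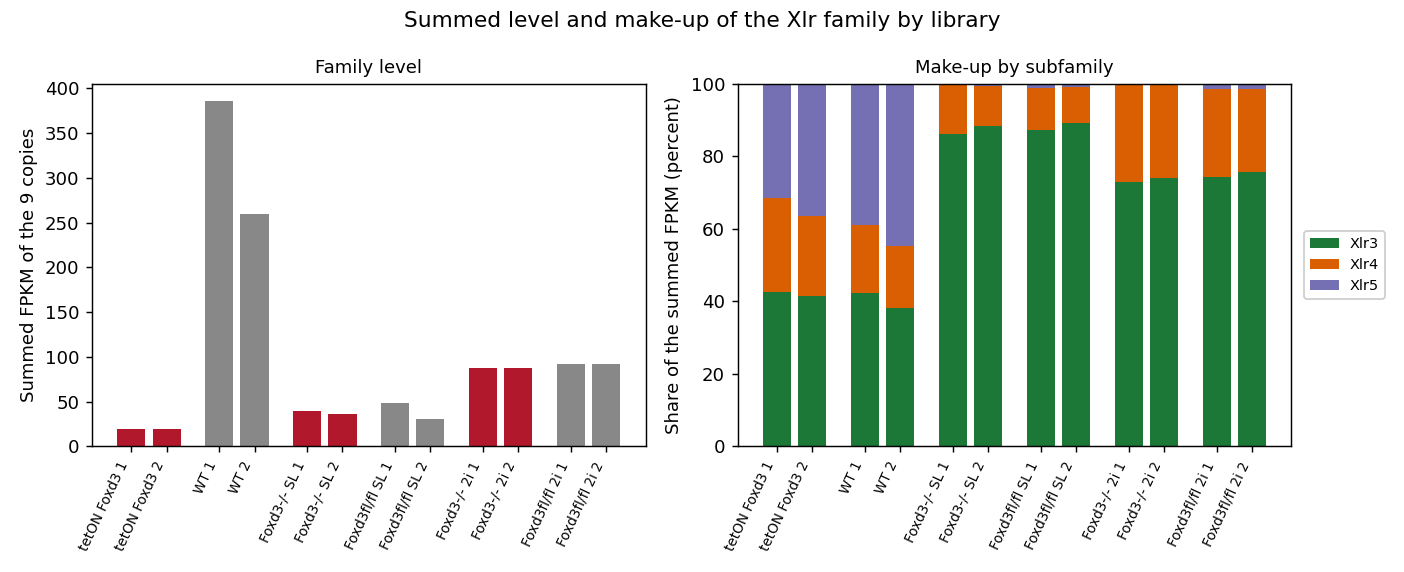
Left, the FPKM of the 9 copies summed in each library, with red bars for tetON Foxd3 and Foxd3-/- and grey bars for WT and Foxd3fl/fl; right, the percent of that sum taken by the Xlr3, Xlr4 and Xlr5 copies. The WT libraries reach 386 and 260 FPKM, and the Xlr5 share is visible in the tetON Foxd3 and WT libraries and on average at most 1.48% in the other groups.

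All 9 copies were highest in WT, and the order of the other groups differed between copies. Each of the Xlr3 copies was highest in WT, next in the 2i groups, then in the SL groups, and lowest in tetON Foxd3. Xlr4a had the same order, while Xlr4b and Xlr4c were lower in SL (0.833 to 0.929 FPKM) than in tetON Foxd3 (1.43 and 1.35 FPKM). The Xlr5 copies were highest in WT and second in tetON Foxd3, above all 8 SL and 2i libraries. Neighbours in this order whose libraries overlapped were the SL groups for all copies of Xlr3 and Xlr4, and the 2i groups for Xlr3b, Xlr4a and Xlr4c. For Xlr5a the labelled Foxd3-/- 2i, the Foxd3fl/fl SL and the Foxd3-/- SL groups overlapped in that order. For Xlr5b the Foxd3fl/fl SL and labelled Foxd3-/- 2i groups overlapped, and for Xlr5c no neighbouring groups did.

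Deleting Foxd3 in SL left no detectable change in the copies that could be tested. Differences were tested with limma on log2(FPKM + 1), with p-values adjusted by Benjamini and Hochberg over 12024 genes and a threshold of 0.05. Of the 9 copies, 4 had a mean of at least 1 FPKM in either group and were tested, and 0 were called, beside 0.00832% of all genes tested (1 gene). At an unadjusted p under 0.05, limma listed 730 genes as higher and 367 as lower, of which 0 were Xlr copies, and the authors' deposited p-values, adjusted over the table, called 0 of the 9 lower, beside 0.095% of its rows. The number of genes called in this comparison varied with the fit: it was 185 in 1 fit of all 12 libraries, 107 from the authors' deposited p-values and 1997 with the replicate number as a block, with 0 of the Xlr copies called in each.

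Xlr3a had 23.2 and 22.2 FPKM in Foxd3-/- libraries, against 29.2 and 19.2 FPKM in Foxd3fl/fl libraries. Xlr3b had 8.90 and 7.74 FPKM in Foxd3-/- libraries, against 10.4 and 6.96 FPKM in Foxd3fl/fl libraries. Xlr3c had 2.31 and 1.92 FPKM in Foxd3-/- libraries, against 2.54 and 1.54 FPKM in Foxd3fl/fl libraries. In each case the Foxd3-/- libraries lay between the Foxd3fl/fl libraries. Xlr4a had 3.14 and 2.54 FPKM in Foxd3-/- libraries, against 3.43 and 1.95 FPKM in Foxd3fl/fl libraries, in the same arrangement. The log2 differences were -0.06 (Xlr3a), -0.04 (Xlr3b), 0.05 (Xlr3c) and 0.08 (Xlr4a), with limma adjusted p between 0.974 and 0.989 after Benjamini-Hochberg adjustment. Their 95% intervals reached from -0.53 to 0.41 for Xlr3a and from -0.47 to 0.63 for Xlr4a, and a change within these bounds was not detectable here. The sign of all 4 turned when 1 library was left out, over a range of -0.35 to 0.23 for Xlr3a and of -0.21 to 0.37 for Xlr4a.

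Foxd3fl/fl replicate 1 was above replicate 2 for all 9 copies in SL, with the smallest ratio for Xlr3b and the largest, 2.18, for Xlr5c. The other 5 copies stayed under the level for testing. Xlr4b had 1.10 and 0.721 FPKM in Foxd3-/- libraries, against 1.11 and 0.560 FPKM in Foxd3fl/fl libraries, and Xlr4c had 1.06 and 0.793 FPKM in Foxd3-/- libraries, against 1.07 and 0.643 FPKM in Foxd3fl/fl libraries. The Xlr5 copies lay between 0.0359 and 0.111 FPKM in Foxd3-/- libraries, against 0.0834 to 0.205 FPKM in Foxd3fl/fl libraries. Xlr5b and Xlr5c were lower in Foxd3-/- without overlap, 2 of 9 copies, beside 15.7% of the 17209 rows with any value above 0, and 0 of 9 were higher without overlap, beside 20.8%. The authors' deposited table lists mean reads of at most 0.97 for an Xlr5 copy in Foxd3-/- and of at most 7.18 in Foxd3fl/fl, so these levels rest on a few reads. Of the marker lists in SL, the 14 fibroblast markers had 11 tested and 0 called, with the sums given above higher in Foxd3-/-. The 7 trophoblast markers summed to 54.1 and 40.1 FPKM in Foxd3-/- libraries, against 17.3 and 14.7 FPKM in Foxd3fl/fl libraries, with 4 tested and 0 called. Most of that sum was Tfap2c, with 45.0 and 32.8 FPKM in Foxd3-/- libraries, against 11.3 and 10.6 FPKM in Foxd3fl/fl libraries. Eomes had a lower mean in Foxd3-/- libraries (2.03 against 2.96 FPKM), and the others had higher means. The 7 germ cell markers summed to 45.6 and 56.9 FPKM in Foxd3-/- libraries, against 76.3 and 75.8 FPKM in Foxd3fl/fl libraries, with 6 tested and 0 called. The part of these cells in the Xlr values was not tested.

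In 2i the Xlr3 and Xlr4 copies stood out little in a comparison in which most genes were called. Of the 9 copies, 6 passed the filter of 1 FPKM and 0 were called by limma, beside 67.6% of the 11637 genes tested (47.9% higher and 19.7% lower in the libraries labelled Foxd3-/-). At an unadjusted p under 0.05, 1 of the 6 was listed, Xlr3a. The authors' deposited p-values, adjusted over the table, called 4 of the 9 copies lower, Xlr3a, Xlr3b, Xlr5a and Xlr5c, beside 20.2% of all rows called lower that way. The median log2 difference over all genes was 0.19 in this table, so an unchanged FPKM stands below the middle of the genes. Without overlap, 5 of the 9 copies were lower in the libraries labelled Foxd3-/- and 1 was higher, beside 23.6% lower and 52.2% higher of the 16608 rows with a value above 0.

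Xlr3a had 38.6 and 39.2 FPKM in libraries labelled Foxd3-/-, against 41.8 and 43.8 FPKM in Foxd3fl/fl libraries. Its groups did not overlap (log2 difference -0.13 ± 0.06, SE; limma adjusted p = 0.0668, Benjamini-Hochberg). Xlr3b had 20.1 and 20.0 FPKM in libraries labelled Foxd3-/-, against 21.1 and 19.8 FPKM in Foxd3fl/fl libraries, and its groups overlapped. Xlr3c had 5.37 and 5.32 FPKM in libraries labelled Foxd3-/-, against 5.84 and 6.21 FPKM in Foxd3fl/fl libraries, without overlap (log2 difference -0.15, limma adjusted p = 0.194). Among the Xlr4 copies the labelled Foxd3-/- libraries were level with or slightly above the others. Xlr4a had 11.8 and 10.9 FPKM in libraries labelled Foxd3-/-, against 11.03 and 10.4 FPKM in Foxd3fl/fl libraries. Xlr4b had 6.73 and 6.51 FPKM in libraries labelled Foxd3-/-, against 6.49 and 5.59 FPKM in Foxd3fl/fl libraries. Xlr4c had 4.90 and 4.98 FPKM in libraries labelled Foxd3-/-, against 4.88 and 4.92 FPKM in Foxd3fl/fl libraries. Of these 3 only the groups of Xlr4b did not overlap, and the log2 differences were 0.07, 0.12 and 0.01 with limma adjusted p of 0.459, 0.324 and 0.926 (Benjamini-Hochberg).

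The Xlr4 signs and the Xlr3 calls depended on the scaling between libraries, which shifts all genes of a library alike. Median-of-ratios scaling, which sets the typical gene equal between libraries, moved the median of all genes to -0.02, and the calls to 3509 higher and 3921 lower, against 5573 higher and 2291 lower without it. Under that scaling Xlr3a, Xlr3b and Xlr3c were called lower in the libraries labelled Foxd3-/- (log2 differences -0.35, -0.24 and -0.34, limma adjusted p of 0.00122, 0.0118 and 0.0118), beside 33.8% of all genes called lower. The Xlr4 copies then stood at -0.13, -0.08 and -0.18, with the opposite sign and no call. With the scaling and without the filter, all 3 Xlr3 and all 3 Xlr5 copies were called lower, 6 of 9, beside 24.4% of the 16608 rows.

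The Xlr5 copies were the members with the clearest difference in 2i, at levels under the filter. Xlr5a had 0.214 and 0.109 FPKM in libraries labelled Foxd3-/-, against 0.665 and 0.539 FPKM in Foxd3fl/fl libraries. Xlr5b had 0.0797 and 0.0835 FPKM in libraries labelled Foxd3-/-, against 0.270 and 0.391 FPKM in Foxd3fl/fl libraries. Xlr5c had 0.0824 and 0.0466 FPKM in libraries labelled Foxd3-/-, against 0.428 and 0.448 FPKM in Foxd3fl/fl libraries. All 3 were lower without overlap, with Foxd3fl/fl means 3.73, 4.05 and 6.79 times the labelled Foxd3-/- means. Of the 2651 rows whose higher group mean lay between 0.1 and 1 FPKM, 22.4% were lower without overlap, and 12.1% were so with a ratio above 2. Fitted without the filter, limma gave log2(FPKM + 1) differences of -0.46 (adjusted p = 0.00535), -0.30 (adjusted p = 0.00851) and -0.43 (adjusted p = 0.00187) after Benjamini-Hochberg adjustment over 16608 rows, of which 14.5% were called lower. Leaving out either Foxd3fl/fl library kept all 3 calls, and leaving out either library labelled Foxd3-/- ended all 3, with adjusted p of 0.0586 to 0.1004. Summed over the 3 copies, Xlr5 had 0.376 and 0.239 FPKM in libraries labelled Foxd3-/-, against 1.36 and 1.38 FPKM in Foxd3fl/fl libraries. The sum passed the filter only through the Foxd3fl/fl group, so its log2 difference of -0.86 is given with no test. The summed Xlr3 copies differed by -0.11 (adjusted p = 0.0921) and the summed Xlr4 copies by 0.08 (adjusted p = 0.344). In the authors' deposited table the mean reads were 2.93 against 13.42 for Xlr5a, 1.18 against 6.77 for Xlr5b and 0.86 against 9.06 for Xlr5c (labelled Foxd3-/-, then Foxd3fl/fl). These counts are near the lower end of what the libraries can show. Since Foxd3 itself hardly differed between these libraries, what separates them besides TM was not tested. The summed markers of other cells differed as well, in a comparison in which 47.9% of all genes were called higher and 19.7% lower. The 7 trophoblast markers summed to 57.2 and 65.3 FPKM in libraries labelled Foxd3-/-, against 31.8 and 33.0 FPKM in Foxd3fl/fl libraries, with 1 of 2 tested called higher. Most of that sum was Tfap2c, the marker called, with 55.4 and 63.4 FPKM in libraries labelled Foxd3-/-, against 30.9 and 31.8 FPKM in Foxd3fl/fl libraries. Elf5 and Gcm1 had lower means in libraries labelled Foxd3-/- (0.0610 and 0.0582 FPKM, against 0.0883 and 0.0961 FPKM), and the others had higher means. The 7 lymphocyte markers summed to 5.72 and 6.72 FPKM in libraries labelled Foxd3-/-, against 6.83 and 7.40 FPKM in Foxd3fl/fl libraries, with 1 of 3 tested called lower. That marker, Cd3e, passed the filter only through the Foxd3fl/fl group (mean 0.542 FPKM in labelled Foxd3-/-, against 1.13 FPKM), so no test is given for it. The 14 fibroblast markers summed to 15.9 and 15.5 FPKM in libraries labelled Foxd3-/-, against 9.97 and 11.3 FPKM in Foxd3fl/fl libraries, with 2 of 4 tested called higher, 1 lower and Lum at 0 in all 4 libraries. The lower marker, Thy1, also passed the filter only through the Foxd3fl/fl group (mean 0.256 FPKM in labelled Foxd3-/-, against 2.84 FPKM), so no test is given for it. The 7 germ cell markers summed to 53.8 and 54.8 FPKM in libraries labelled Foxd3-/-, against 61.3 and 68.3 FPKM in Foxd3fl/fl libraries, with 1 of 7 tested called higher and 3 lower. The part of these cells in the Xlr5 values was not tested.

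**Figure D3:**
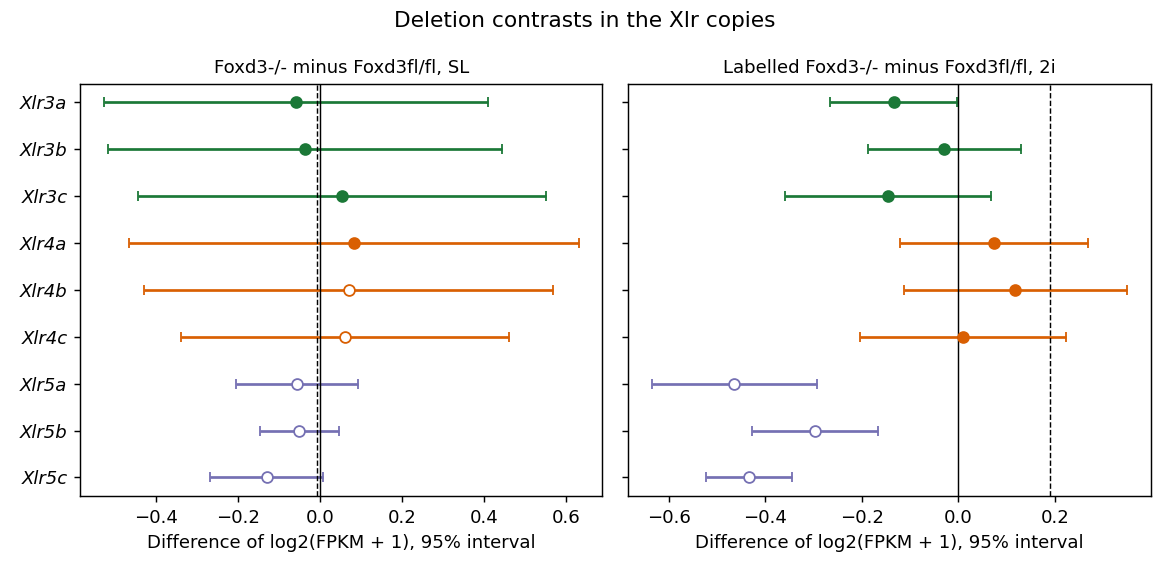
Difference of log2(FPKM + 1) for each copy with its 95% interval from limma, Foxd3-/- minus Foxd3fl/fl in SL (left) and labelled Foxd3-/- minus Foxd3fl/fl in 2i (right); green is Xlr3, orange Xlr4 and purple Xlr5, filled points passed the filter of 1 FPKM, open points come from the fit without it, and the dashed line is the median of all genes tested. All 9 intervals in SL include 0, and in 2i the 3 Xlr5 intervals lie clear below 0 while that of Xlr3a ends at -0.00.

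Whether the difference between treated and untreated cells itself differed between 2i and SL was tested in a joint fit of both tables. Of 12497 genes, 23.9% were called, and 0 of the 6 Xlr copies tested were, with limma adjusted p between 0.546 and 0.985 (Benjamini-Hochberg). Without Foxd3fl/fl SL replicate 1, 1 copy was called, Xlr3a (-0.36, adjusted p = 0.0405). Without the filter, Xlr5a (-0.41, 95% interval -0.64 to -0.18, adjusted p = 0.0404) and Xlr5c (-0.30, -0.46 to -0.15, adjusted p = 0.0319) were called, with the 2i difference the more negative, beside 3.5% of 17348 rows called that way. Xlr5b (-0.25, adjusted p = 0.0544) was not. Each of the Xlr5a and Xlr5c calls was lost without most single libraries: 1 of 8 such fits kept Xlr5a and 2 of 8 kept Xlr5c. Medium and feeders differ together between the tables and cannot be told apart here.

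Of the tested genes around the cluster, Gm14685 and DXBay18 showed the largest differences in tetON Foxd3 cells. Both overlap an Xlr5 start, for Xlr5a that of the transcript that begins at chrX:73117702. The annotation places 27 other genes within 300 kb, of which 15 are in the tables. In tetON Foxd3 against WT, 11 were tested, with 0 called higher and 3 lower, beside 0.994% of all genes called higher and 1.65% called lower by limma. Gm14685, which overlaps the start of Xlr5a on the other strand, had 0.180 and 0.315 FPKM in tetON Foxd3 libraries, against 5.41 and 5.82 FPKM in WT libraries (log2 difference -2.41). DXBay18, which overlaps the start of Xlr5b on the other strand, had 0.201 and 0.288 FPKM in tetON Foxd3 libraries, against 5.32 and 5.62 FPKM in WT libraries (log2 difference -2.38). Both are among the 3 called lower, but they passed the filter only through the WT group, so no test is given for them. Without the filter on low values limma called 0 genes in this comparison after adjustment, and every limma call named here for tetON Foxd3 against WT depends on it. Their rows carry a joined symbol in the tables and were matched by gene ID. The sources do not say that counting used strand, so their reads and those of Xlr5a and Xlr5b, whose values chose the family, cannot be told apart.

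Pnma5, a gene of the retrotransposon-derived paraneoplastic antigen family beside the cluster, had 40.9 and 43.2 FPKM in tetON Foxd3 libraries, against 73.5 and 70.8 FPKM in WT libraries (log2 difference -0.77, limma adjusted p = 0.0270). F8a lies inside the cluster, between Xlr4b and Xlr4c and within the long annotated body of Xlr5a, and encodes a partner of huntingtin. It had 2.92 and 3.48 FPKM in tetON Foxd3 libraries, against 3.42 and 3.62 FPKM in WT libraries, with overlapping groups (log2 difference -0.11, limma adjusted p = 0.735). Haus7, a subunit of the augmin complex of the mitotic spindle, differed by -0.41 (adjusted p = 0.0719). Spin2d, also inside the cluster, stayed under the filter with 0.0382 and 0.0351 FPKM in tetON Foxd3 libraries, against 0.370 and 0.404 FPKM in WT libraries. The tested neighbours, Gm14685 and DXBay18 among them, had a median log2 difference of -0.41. The 465 X-linked genes tested besides the 9 copies, with these neighbours among them, had a median of -0.09. Of them 8 were called higher and 27 lower (log2, beside a median of -3.50 for the 9 copies).

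**Figure D4:**
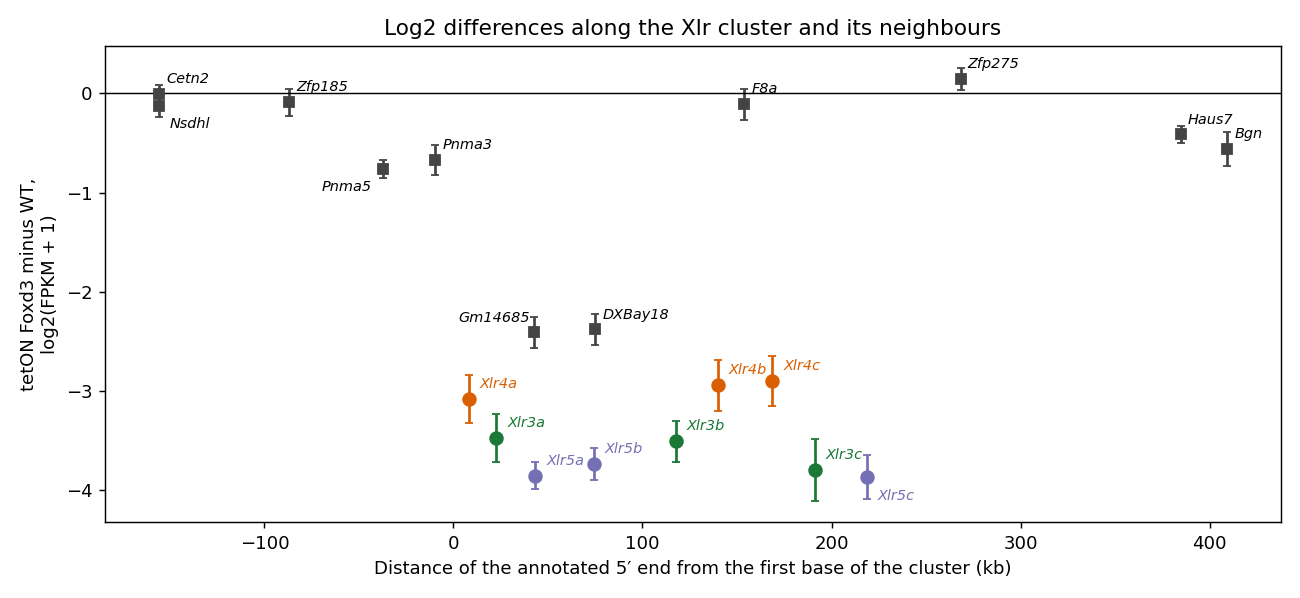
Log2(FPKM + 1) difference, tetON Foxd3 minus WT, of the 9 copies (circles, green for Xlr3, orange for Xlr4, purple for Xlr5) and of the 11 tested neighbours (squares) against the distance of the annotated 5′ end from the first base of the cluster; bars are standard errors from limma. The copies lie between -3.86 and -2.90, F8a inside the cluster lies at -0.11, and Gm14685 and DXBay18 lie at -2.41 and -2.38.

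Fewer neighbours passed the filter in the deletion comparisons. In SL 9 were tested and 0 called in either direction. In 2i 7 were tested, with 5 higher and 2 lower in the libraries labelled Foxd3-/-, beside 47.9% higher and 19.7% lower over all genes. F8a, among the 5 higher, passed the filter only through the labelled Foxd3-/- group (mean 1.25 FPKM, against 0.838 FPKM in Foxd3fl/fl), so no test is given for it. Pnma5 had 33.0 and 32.0 FPKM in libraries labelled Foxd3-/-, against 21.6 and 21.7 FPKM in Foxd3fl/fl libraries in 2i (log2 difference 0.57, limma adjusted p = 0.000105), while no Xlr copy that passed the filter was called in that fit.

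Genes related to the family by sequence or by their part in meiosis were looked at beside it. Of 18 genes listed, the founding gene Xlr and partners of SYCP3 among them, 13 were tested in tetON Foxd3 against WT. Of these 1 was higher and 0 lower, with a median log2 difference of -0.23. Over all genes 0.994% were called higher and 1.65% lower, with a median of 0.03. Sycp3, the relative whose structure the family shares, was higher, with 88.3 and 82.2 FPKM in tetON Foxd3 libraries, against 53.2 and 41.3 FPKM in WT libraries (log2 difference 0.85, limma adjusted p = 0.0494). Hormad1, which marks unsynapsed chromosome axes, had 26.2 and 31.5 FPKM in tetON Foxd3 libraries, against 76.1 and 52.9 FPKM in WT libraries, without overlap and without a call (log2 difference -1.12, adjusted p = 0.0534). In SL 10 were tested and 0 called, with a median of -0.30. In 2i 12 were tested, 2 higher and 4 lower, with a median of -0.08, beside 47.9% higher, 19.7% lower and a median of 0.19 over all genes. The lower ones were Smc1b, a cohesin subunit of meiosis (-1.08), Tex11 (-0.73), Syce3 (-0.71) and Syce2 (-0.40), the last 2 being parts of the synaptonemal complex, and the higher ones were Sycp1 (0.68) and Rec8 (0.35), with limma adjusted p of at most 0.00366.

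Germline genes listed as silenced by promoter methylation gave 13 tested of 18 listed in tetON Foxd3 against WT. Methylation was not measured here, and not all of the listed genes were silent in these cells. Of the 13 tested, 1 was higher (Sycp3, already counted in the list above) and 2 were lower, with a median of -0.65. Over all genes 0.994% were called higher and 1.65% lower, with a median of 0.03. The lower ones were Rpl10l, a testis ribosomal protein gene (50.9 ± 0.255 FPKM in tetON Foxd3 and 101 ± 1.09 FPKM in WT, SD, n = 2 each), and Taf7l, a germ cell TFIID subunit (1.56 ± 0.828 FPKM in tetON Foxd3 and 6.60 ± 0.947 FPKM in WT). In SL 14 were tested and 0 called, with a median of -0.08, and in 2i 14 were tested, 2 higher and 6 lower, with a median of -0.23, beside the same 47.9% higher and 19.7% lower over all genes. Taf7l, among the 6 lower in 2i, passed the filter only through the Foxd3fl/fl group (mean 0.852 FPKM in labelled Foxd3-/-, against 1.24 FPKM), so no test is given for it. Of 11 tested genes of DNA methylation and H3K9 silencing, 0 were higher and 1 lower in tetON Foxd3 cells, beside 0.994% and 1.65% over all genes. Their median was -0.18. The lower one was Dnmt3l, the cofactor of the de novo methyltransferases, with 53.6 and 60.8 FPKM in tetON Foxd3 libraries, against 153 and 111 FPKM in WT libraries (log2 difference -1.18, limma adjusted p = 0.0409). Dnmt3b, a de novo methyltransferase, had 61.6 and 55.5 FPKM in tetON Foxd3 libraries, against 25.7 and 35.5 FPKM in WT libraries, without overlap and without a call (log2 difference 0.93, adjusted p = 0.0561). In SL 0 of 11 were called, with a median of 0.14. In 2i 5 were higher and 3 lower, with a median of 0.01, beside 47.9% higher and 19.7% lower over all genes.

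The pattern of the family sum over the 12 libraries was most like that of Igf2bp2, an RNA-binding protein gene (Pearson r = 0.977), followed by Slc11a1, a metal ion transporter, Dppa5a, a stem cell marker (0.970), Smoc1 (0.959) and Tex14, a gene of germ cell bridges (0.958). The values were log2(FPKM + 1) centred within each table, over 10165 genes, whose median r was -0.07 and 99th percentile 0.870. The libraries of a table share their normalization, and 98.7% of the family's sum of squares came from the table of tetON Foxd3 and WT, so r mostly restates that comparison. Igf2bp2 had 13.1 and 12.9 FPKM in tetON Foxd3 libraries, against 58.3 and 40.0 FPKM in WT libraries. None of the 5 lies on the X chromosome.

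The authors' mean reads and the FPKM values did not give the same picture of single copies. The mean reads of a group, as a share of that group's sum, were divided by the mean FPKM, which gives the length in bases that the 2 measures imply. Its spread between groups was taken from genes with many mean reads in both groups. The log2 ratio of Foxd3fl/fl in SL to WT lay between -0.22 and 0.11 for the middle 90% of 10360 such genes. For Foxd3fl/fl in 2i to WT it lay between -0.29 and 0.32 for the middle 90% of 9270. Xlr3c had 13.7 to 100.37 mean reads outside WT, fewer than those genes had, so these ranges do not cover it. For Xlr3c the implied length was 816 bases in tetON Foxd3 and 1051 bases in WT, 273 bases in Foxd3-/- and 124 bases in Foxd3fl/fl in SL, and 519 bases in labelled Foxd3-/- and 616 bases in Foxd3fl/fl in 2i. For Xlr3b it was 1076 bases in tetON Foxd3 and 1381 bases in WT, 961 bases in Foxd3-/- and 902 bases in Foxd3fl/fl in SL, and 1740 bases in labelled Foxd3-/- and 1841 bases in Foxd3fl/fl in 2i. Xlr4a stayed within 729 to 1066 bases in all 6 groups and Xlr4c within 375 to 540 bases. Xlr3a ranged from 1127 to 1808 bases and Xlr4b from 354 to 962 bases. The Xlr5 copies ranged from 175 to 886 bases (Xlr5a), 140 to 757 bases (Xlr5b) and 197 to 764 bases (Xlr5c), with few reads in SL and 2i.

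The gap reaches the comparisons themselves. In SL the authors' deposited table gives Xlr3c 30.76 mean reads in Foxd3-/- and 13.7 in Foxd3fl/fl, a fold of 2.24, where the FPKM means were 2.12 and 2.04. In 2i the authors' deposited table gives Xlr3a a fold of -1.36 and Xlr3b of -1.2, where the FPKM ratio of Foxd3fl/fl to labelled Foxd3-/- was 1.10 and 1.02. On the log2 scale those folds are -0.44 and -0.26, beside -0.35 and -0.24 for FPKM after median-of-ratios scaling. The authors' deposited p-values gave 4071 genes higher and 3980 lower in 2i, a split closer to that of the scaled FPKM (3509 and 3921). In tetON Foxd3 against WT both measures had all 9 copies at least 12.5 times lower in tetON Foxd3. How the authors treated reads that match several copies is not stated in the labels or headers, and its part in these differences was not tested.

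**Figure D5:**
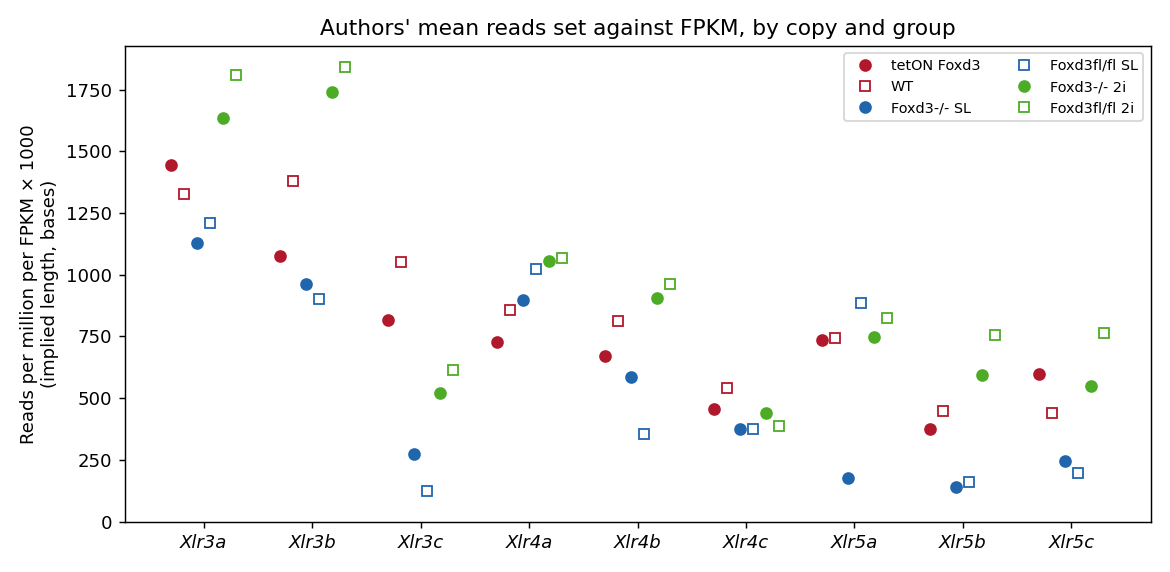
The length in bases implied by the authors' mean reads and the mean FPKM, for each copy and group; filled circles are tetON Foxd3 and Foxd3-/-, open squares WT and Foxd3fl/fl (red for tetON Foxd3 and WT, blue for SL, green for 2i). Xlr3c ranges from 124 to 1051 bases between groups, and Xlr4a stays between 729 and 1066 bases.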

How the data were processed

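The authors deposited 1 table for each comparison, with FPKM per library, the mean reads of each group (a signal value, since it is not a whole count), a signed fold and a p-value. Per the submitters' processing notes, the tools were Cufflinks, TopHat2, DESeq2, FastQC and SAMtools, and the builds mm10 and GRCm38, without versions and without saying which step made which column of the deposited p-value and signal columns. The medium of each deletion table was taken from the table's name. Libraries were matched to samples by title. Only the FPKM columns were tested. FPKM values were used as deposited, on log2(FPKM + 1), for genes with a mean of at least 1 FPKM in either group, with limma 3.58.1 (with a mean-variance trend) in R 4.3.3, within each table, and p-values were adjusted by Benjamini and Hochberg over all genes tested. The difference between the 2i and SL comparisons was fitted on both tables together, with a mean for each group.

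The fit was tested on simulated data. Depth per library is unknown from FPKM, and with 2 libraries a group the intervals are wide. Alternatives were a pseudocount of 0.1, a filter of 5 FPKM or none, median-of-ratios scaling, 1 fit over all 12 libraries, a replicate block, summed subfamilies, the authors' p-values and each library left out. The fits without the filter that also changed the pseudocount or the scaling, or left out a library were added after seeing the data. The members and all gene lists were chosen with earlier results of these data known, and the genes with the most similar pattern are the 5 with the highest Pearson r to the family sum. Sequences came from GENCODE M21 transcripts, aligned with MAFFT 7.526 and Biopython 1.88, and from RefSeq promoters.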

Additional observations from a re-analysis of the deposited data

Results flagged for a closer look

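The difference between treated and untreated cells differed between 2i and SL for Xlr5a by -0.41 (log2(FPKM + 1), the 2i difference minus the SL difference; limma adjusted p = 0.0404 with Benjamini-Hochberg adjustment) and for Xlr5c by -0.30 (limma adjusted p = 0.0319). Both come from the fit without a filter on low values, and both copies lie under 1 FPKM in all 8 libraries. In Xlr5c the 2i difference was -0.43 and the SL difference -0.13, and in Xlr5a they were -0.46 and -0.06. With median-of-ratios scaling, an alternative added after seeing the data, the values were -0.46 (adjusted p = 0.0349) for Xlr5a and -0.34 (adjusted p = 0.0296) for Xlr5c. Without 1 library in turn, limma adjusted p ranged from 0.0389 to 0.142 for Xlr5a, which kept its call only without Foxd3fl/fl SL replicate 1, and from 0.0267 to 0.128 for Xlr5c, which kept it only without either Foxd3fl/fl SL library.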

How the results depend on the processing

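All 9 copies stayed far below WT in tetON Foxd3 cells: their median log2 difference of -3.50 became -3.94 with a pseudocount of 0.1, with or without the filter, -4.02 from the authors' folds, and -3.83 to -3.25 without single libraries. The number of genes called in that comparison (316) was 1734 in 1 fit of all 12 libraries, 909 from the authors' p-values, 0 without the filter (limma; unadjusted p under 0.05 held for 1245 higher and 1241 lower genes with the filter), also 0 with median-of-ratios scaling added, 47 without the filter and with a pseudocount of 0.1, and 42 to 342 without single libraries. In SL the 1 gene called became 185 in the fit of all libraries, 107 from the authors' p-values and 1 to 313 without single libraries. The signs of the SL differences turned without single libraries: -0.35 to 0.23 for Xlr3a, -0.30 to 0.22 for Xlr3b, -0.18 to 0.29 for Xlr3c, -0.21 to 0.37 for Xlr4a, -0.15 to 0.21 for Xlr4b, -0.11 to 0.16 for Xlr4c and -0.13 to 0.013 for Xlr5a without the filter. From the authors' table Xlr4a stood at -0.12 in SL. In 2i the copies called (0) became 3 without the filter (also with a pseudocount of 0.1), 3 with median-of-ratios scaling, 6 with both and 4 from the authors' p-values. Of the subfamily sums, Xlr3 and Xlr4 were not called, and Xlr5 passed the filter only through Foxd3fl/fl, so no test is given for it. Median-of-ratios scaling, with or without the filter, gave -0.13, -0.076 and -0.18 for Xlr4a, Xlr4b and Xlr4c. The authors' table gave -0.10 and -0.11 for Xlr4a and Xlr4b, and Xlr3b ranged from -0.073 to 0.014 without single libraries. The difference between 2i and SL was called for 683 to 3761 genes without single libraries, against 2987. It was called for 2 copies without the filter, and for 0 to 1 without single libraries, the 1 being Xlr3a without Foxd3fl/fl SL replicate 1. The causes were not tested. Where a group kept 1 library, it was assumed to vary like the others.

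Replicate numbers are shared between groups by number only. Same-numbered libraries deviated together in SL (r = 0.605) and in tetON Foxd3 and WT (0.596), not in 2i (-0.05), and 2 pairs cannot show a pairing. With the replicate block, 1997 genes were called in SL, 7566 in 2i, 2473 in tetON Foxd3 against WT and 5342 for the difference between media, with 0 Xlr copies called in SL or 2i. Every Xlr5 copy lay under 1 FPKM in SL and 2i. The authors' mean reads for them ran from 0.49 (Xlr5c, Foxd3-/- in SL) to 13.42 (Xlr5a, Foxd3fl/fl in 2i), so these levels rest on few reads.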
